A study of Mus musculus with 6 samples.

Results

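The genes described here are Alas2, Fech, Slc25a37, Tfrc, Ank1, Epb42 and Bpgm, 7 genes of red cell heme, iron supply, membrane skeleton and oxygen release. They were taken from the 18194 genes that had a probe set of their own on a mouse expression array. Alas2 was chosen by its knockout against heterozygous p, the smallest after adjustment over the lists of an earlier look at these arrays. The other 6 were added to ask whether red cell genes follow it, so the knockout against heterozygous values below are a description. Each gene was read by every probe set that the array's annotation assigned to it alone, 21 in all. A probe set of Slc25a37 that is also assigned to another gene was left out.

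The arrays came from thyroid tissue of mice at postnatal day 15, with 3 from animals lacking Slc26a4, the knockouts, and 3 from Slc26a4 heterozygotes, the group they are set against. Slc26a4 encodes pendrin, an anion exchanger of the thyrocyte membrane. All 6 samples therefore carry at least 1 disrupted Slc26a4 allele, and the labels name neither strain, nor the deleted part of the gene, nor how many animals a sample holds. The thyroid was microdissected and no cell type was sorted from it. The samples are called knockout 2, 4 and 6 and heterozygous 1, 3 and 5 after the numbers in their labels. Nothing in the labels says that they came from separate animals, so errors measure the spread between these samples, which may be technical in part.

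In a developing red cell, Alas2 catalyses the first step of heme synthesis in the mitochondrion and Fech the last, where iron is inserted into the ring. That iron enters the cell through the transferrin receptor Tfrc and the mitochondrion through mitoferrin, the product of Slc25a37. Ank1 encodes ankyrin, which ties the spectrin skeleton to the membrane anion exchanger Slc4a1, and Epb42 encodes a protein of the same complex. Bpgm makes the bisphosphoglycerate that lowers the oxygen affinity of hemoglobin. Alas2 and Epb42 are known as red cell genes, whereas Fech, Tfrc, Slc25a37 and Bpgm are used by many other cells, and a short form of ankyrin from Ank1 is made in striated muscle. Young red cells in the blood still carry RNA, so a gland with blood in it can hold red cell transcripts.

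Promoters were available for 4 of the 7 genes, Alas2, Epb42, Bpgm and Tfrc, from RefSeq on the mouse build GRCm38.p6. Those of both red cell genes are shown because they hold the letters AGATAA, a form of the box bound by GATA factors, and that of Bpgm because it is a bright member whose window lacks them. Each runs 5′ to 3′ from 250 bases before the annotated start to 50 bases after it. Capitals mark AGATAA or its reverse complement TTATCT.

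Alas2: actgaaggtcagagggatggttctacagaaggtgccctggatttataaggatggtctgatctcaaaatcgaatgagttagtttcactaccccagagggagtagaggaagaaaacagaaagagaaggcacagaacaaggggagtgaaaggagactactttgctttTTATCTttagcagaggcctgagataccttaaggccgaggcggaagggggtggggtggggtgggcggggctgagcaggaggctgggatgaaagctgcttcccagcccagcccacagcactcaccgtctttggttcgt

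Epb42: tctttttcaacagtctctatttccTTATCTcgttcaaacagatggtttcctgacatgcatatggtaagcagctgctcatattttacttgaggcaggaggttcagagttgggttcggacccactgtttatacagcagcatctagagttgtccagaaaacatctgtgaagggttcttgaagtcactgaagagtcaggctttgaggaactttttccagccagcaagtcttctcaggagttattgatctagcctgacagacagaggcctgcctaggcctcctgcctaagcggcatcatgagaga

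Bpgm: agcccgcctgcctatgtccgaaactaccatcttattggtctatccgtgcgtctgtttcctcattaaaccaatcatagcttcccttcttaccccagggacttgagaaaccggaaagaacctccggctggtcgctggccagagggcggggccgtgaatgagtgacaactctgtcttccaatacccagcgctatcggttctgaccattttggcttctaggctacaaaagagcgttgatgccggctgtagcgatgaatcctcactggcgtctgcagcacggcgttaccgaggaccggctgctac

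The Alas2 promoter lies at chrX:150547167-150547466 on the plus strand, that of Epb42 at chr2:121036828-121037127 on the minus strand and that of Bpgm at chr6:34476106-34476405 on the plus strand. On both strands together AGATAA was found 1 time in the Alas2 window, at -86 from the start, and 1 time in that of Epb42, at -226. It was found 0 times in the window of Bpgm and in the 2 annotated windows of Tfrc. Of all 32851 promoter windows of that length, 11.2% held it. The letters CACCC, a core of the box bound by Klf factors, were found 3 times in the Alas2 window, 0 times in those of Epb42 and Bpgm and 3 and 4 times in those of Tfrc. That motif was in 57.5% of all windows and does not overlap AGATAA. These matches describe the letters alone.

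Values below are linear array signals, printed for knockouts 2, 4 and 6 and then for heterozygous 1, 3 and 5. The median signal of an array was between 78.1 and 103.6, and 67.5% to 73.8% of probe sets were brighter than 22.9. That is the highest value of the Bacillus control probe sets and the background used here. The thyroid label held, with thyroglobulin (Tg) at 11795 to 13201 in knockouts and 12449 to 13805 in heterozygotes. The brown fat gene Ucp1 was bright on every array too, at 9211 to 11977 in knockouts and 9816 to 11159 in heterozygotes. Slc26a4 read 7.29, 2.10 and 15.7 in knockouts, against 5.0, 4.59 and 12.1 in heterozygotes. All 6 values were under the background, so the genotypes could not be checked by it. The thymus and T cell markers stood out on knockout 4 alone, where the terminal transferase Dntt read 1779 against 6.09 to 24.5 on the other 5 arrays. Xist, made from the inactive X chromosome, read 5442 on knockout 6, against 34.3 to 110.2 on the others.

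The adult globin genes Hbb-b2 and Hba-a2 were bright in all 6 samples, while genes of red cell precursors ranged from under the background to well above it. Hbb-b2 read 8562, 10633 and 9550 in knockouts, against 9524, 9664 and 8507 in heterozygotes (1427865_at). By 1427866_x_at it read 162 to 289 in knockouts and 180 to 261 in heterozygotes. Hba-a1 by 1453574_at was under the background on all 6 arrays, at 2.37 to 6.54 in knockouts and 0.818 to 11.7 in heterozygotes. The erythroid transcription factor Klf1 was under the background on all 6 arrays, at 3.08, 21.7 and 20.4 in knockouts and 21.8, 6.58 and 12.6 in heterozygotes. Gata1, its partner, was above it on heterozygous 5 alone, at 26.8. The membrane proteins Rhag, Rhd and Kel were under the background throughout. Of the 10 listed regulators Klf1 was the 1 under it on all arrays, and of the 15 listed membrane genes with a probe set these 3 were. Tal1, Lmo2, Epor and Slc4a1, described below, were above it on all 6. Klf1 and Gata1 were chosen after their values were seen. In bulk tissue, fewer cells of a type and less RNA per cell cannot be told apart.

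Alas2 had the widest gap between the group means of the 6 member genes that could be tested, in units of log2. It is measured by 1 probe set, 1451675_a_at, which read 281, 482 and 312 in knockout samples. In heterozygous samples it read 118, 167 and 310.4. The groups overlapped, since heterozygous 5 lay above knockout 2 and just under knockout 6. Heterozygous 1 and 3 were the low arrays and knockout 4 the high one. The means were 358 ± 108 in knockouts and 198 ± 99.9 in heterozygotes (SD, n = 3 each). On the log2(signal + 16.7) scale, which understates differences of dim genes, the knockout mean was 0.86 higher with a standard error of 0.34. That gap chose the gene, so nothing is read from its limma p, which is only counted with the others below.

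The Alas2 gap depended on single arrays. Without knockout 4 it was 0.64 and without heterozygous 1 it was 0.58, and with both left out it was 0.35. Without heterozygous 5 it was 1.22. Marker lists of other cells shared some of its high and low arrays. The proliferation list shared both, with its highest sum, 10446, on knockout 4 and its lowest, 5405, on heterozygous 1. Of its 15 tested genes 13 had the higher knockout mean and 0 passed. The neutrophil list, led by S100a8 and S100a9, summed to 1327, 1763 and 1564 over its 5 tested genes in knockouts, against 723, 1184 and 2827 in heterozygotes. Its lowest array was heterozygous 1, as for Alas2, while its highest was heterozygous 5. The neutrophil elastase gene Elane reached 25.3 on knockout 2 and lay under the background on the other arrays, and Mmp8 and Cxcr2 were under it on all 6. The T cell list summed to 3212 on knockout 4, the highest Alas2 array, and to 80.2 to 127.7 on the other 5. The part of these cells in the Alas2 values was not tested, beyond the value of 0.64 without knockout 4.

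**Figure D1:**
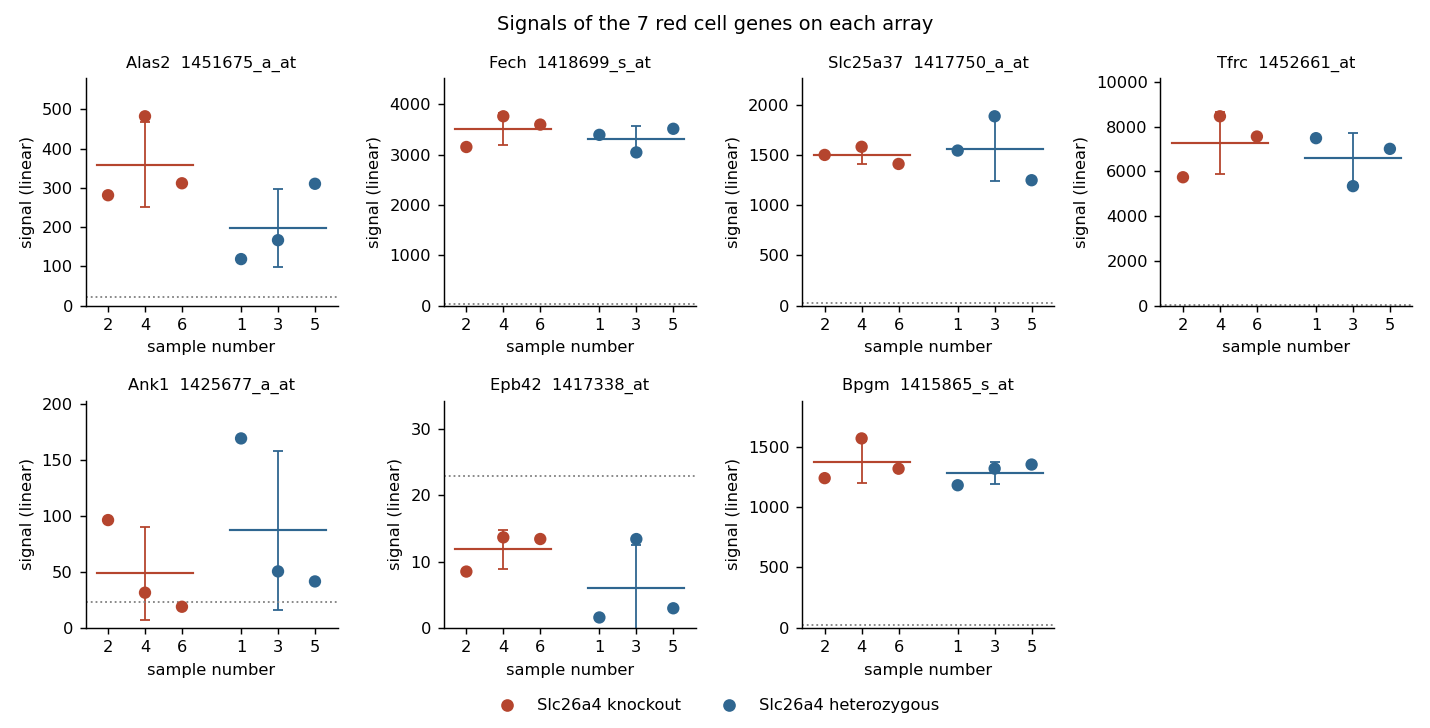
Signal of each of the 7 genes on each array, by the brightest tested probe set or, for Epb42, the brighter of 2 untested ones. Points are arrays (x axis, sample number), knockouts in red on the left and heterozygotes in blue on the right, on a linear y axis from 0. Lines are group means with SD bars and dotted lines mark the background of 22.9. Heterozygous 1 and 3 are low for Alas2, at 118 and 167, while all Epb42 points lie under the background.

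For the last enzyme of the pathway the genotypes overlapped. Fech has 4 probe sets, of which 1427696_at was under the background on all 6 arrays, at 0.948 to 16.2 in knockouts and 3.34 to 10.9 in heterozygotes. The brightest, 1418699_s_at, read 3149, 3759 and 3594 in knockouts, against 3390.4, 3042 and 3511 in heterozygotes. Knockout 4 was the highest and heterozygous 3 the lowest, with knockout 2 below both remaining heterozygotes. The log2 difference was 0.08 ± 0.10 (SE), with a 95% interval of -0.15 to 0.31. It was 0.02 without heterozygous 3 or without knockout 4, 0.12 without heterozygous 5 and 0.15 without knockout 2. The other 2 bright probe sets gave 0.06 (-0.21 to 0.32) and 0.07 (-0.21 to 0.36), and the first, 1418698_a_at, changed sign without knockout 4, to -0.006, and without knockout 6, to -0.005.

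Iron supply to the mitochondrion gave the opposite sign by a small amount. Slc25a37 read 1503, 1584 and 1413 in knockouts, against 1547, 1889 and 1251 in heterozygotes (1417750_a_at). The heterozygotes held both the highest array, 3, and the lowest, 5, and the knockouts lay between. The log2 difference was -0.04 ± 0.15 (SE), with an interval of -0.39 to 0.31. Its sign turned without heterozygous 3, to 0.11, and without knockout 6.

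The transferrin receptor gene Tfrc varied strongly between arrays and in the same way by all of its probe sets. The brightest, 1452661_at, read 5736, 8462 and 7556 in knockouts, against 7484, 5338 and 7006 in heterozygotes. Knockout 2 and heterozygous 3 were low and knockout 4 was high. The log2 difference was 0.13 ± 0.17 (SE), with an interval of -0.26 to 0.52. Single arrays moved it, to -0.02 without heterozygous 3, 0.01 without knockout 4, 0.23 without heterozygous 1 and 0.29 without knockout 2. The probe set 1422967_a_at had the widest spread, at 167, 469 and 395 in knockouts and 320.1, 121 and 596 in heterozygotes. Its log2 difference of 0.12 had an interval of -1.15 to 1.40 and ran between -0.45 without heterozygous 3 and 0.63 without heterozygous 5. The third, 1422966_a_at, read 424, 964 and 887 in knockouts, against 623, 607 and 816 in heterozygotes.

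Another 3 probe sets of Tfrc are controls that read the 5′ part, the middle and the 3′ part of its transcript, and they were not tested. The 5′ control read 38.3, 162 and 120 in knockouts, against 115, 56.8 and 135 in heterozygotes, again lowest on knockout 2 and heterozygous 3. Over the 6 arrays the 15 pairs of Tfrc probe sets had Pearson r values between 0.76 and 0.99. The pairs share arrays and 1 transcript, so this is agreement within a gene. The ratio of the 3′ to the 5′ control signal of Tfrc was 7.04 on knockout 2 and 7.0 on heterozygous 3, and 3.54 to 4.83 on the other 4 arrays. The same ratio for Gapdh and actin, a usual sign of RNA quality, was 1.47 and 3.13 on knockout 2 and 1.32 and 2.70 on heterozygous 3. It lay between 1.33 and 1.47 for Gapdh and between 2.70 and 3.21 for actin on the other 4 arrays. The part of RNA quality in the Tfrc values was not tested. The proliferation list summed to 7684 on knockout 2 and to 8846 on heterozygous 3, both between its extremes on heterozygous 1 and knockout 4.

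**Figure D2:**
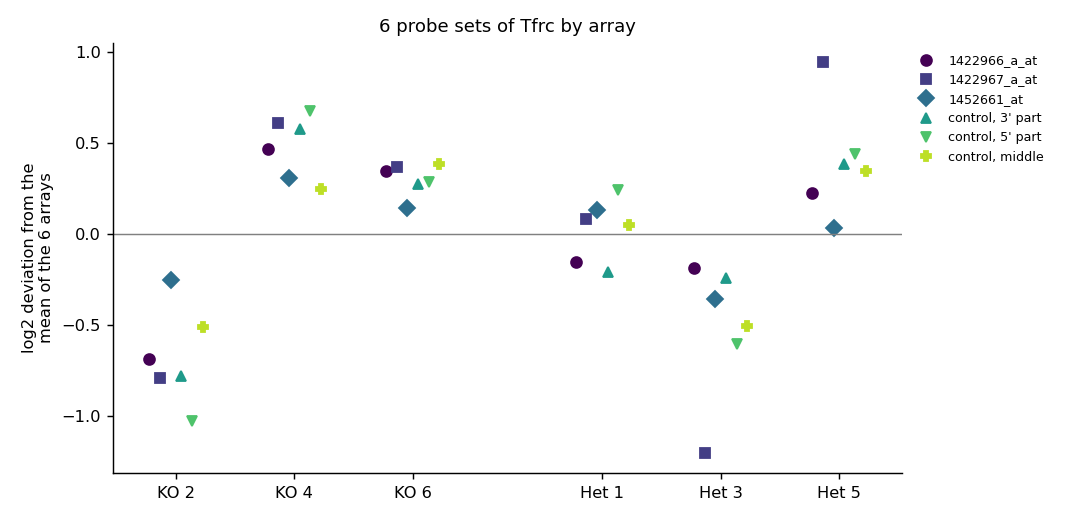
Log2 deviation of each of the 6 probe sets of Tfrc from its own mean over the 6 arrays (y axis), by array (x axis, knockouts left, heterozygotes right). Each marker shape and colour is a probe set, and the 3 controls are named by the part of the transcript they read. All 6 lie below 0 on knockout 2 and heterozygous 3, where the brightest reads 5736 and 5338.

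Ank1 ran against Alas2. Its brightest probe set, 1425677_a_at, read 96.3, 31.3 and 18.7 in knockouts, against 169, 50.4 and 41.4 in heterozygotes. Heterozygous 1 was the highest array, where Alas2 was lowest, followed by knockout 2, and knockout 6 was under the background. The log2 difference was -0.64 ± 0.55 (SE), with an interval of -1.91 to 0.64. The probe set 1419421_at read 56.2, 45.0 and 28.6 in knockouts, against 145, 47.2 and 35.2 in heterozygotes, a log2 difference of -0.46 (-1.47 to 0.54). Without heterozygous 1 the 2 differences were -0.11 and 0.03, and without heterozygous 1 and knockout 6 they were 0.24 and 0.22. The remaining probe sets, 1443291_at and 1452512_a_at, were too dim to test, and the second was under the background on all arrays.

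Skeletal muscle genes shared the high and low arrays of Ank1. The creatine kinase Ckm read 545, 230.0 and 89.1 in knockouts, against 534, 225 and 239 in heterozygotes, and the troponin Tnnt3 read 4555, 2847 and 944 in knockouts, against 4838, 3309 and 3154 in heterozygotes. The actin gene Acta1 read 4235, 2751 and 880 in knockouts, against 3596, 3243 and 3280 in heterozygotes. Knockout 2 and heterozygous 1 were the top pair for all of these and for both tested probe sets of Ank1, and knockout 6 was lowest. The myosin Myh1 differed, with its highest value of 6383 on heterozygous 3, against 1313 to 4593 in knockouts. Of the 6 listed brown fat and muscle genes, 2 had the higher knockout mean. These were the brown fat genes Ucp1 and Cidea, with log2 differences of 0.03 and 0.09. The 4 muscle genes had the lower, at -0.63 for Acta1, -0.40 for Ckm, -0.54 for Myh1 and -0.68 for Tnnt3. Their standard errors were 0.46 to 0.58, and the groups overlapped for each. The list, Ucp1 and Cidea included, summed to 21328 to 27380 in knockouts and 27019 to 27776 in heterozygotes. Ckm, Tnnt3 and Myh1 were picked for their likeness to Ank1 or to show an exception. The part of muscle in the Ank1 values was not tested.

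**Figure D3:**
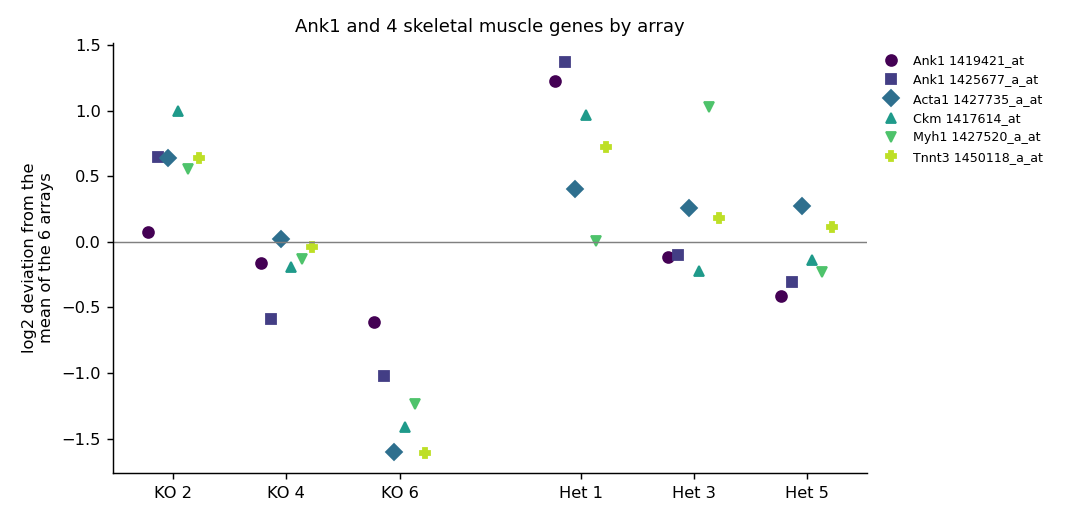
Log2 deviation of both tested Ank1 probe sets and of the muscle genes Acta1, Ckm, Myh1 and Tnnt3 from their own means over the 6 arrays (y axis), by array (x axis, knockouts left, heterozygotes right). Each marker is a probe set. All lie lowest on knockout 6, where Ckm reads 89.1, and all but Myh1 are highest on knockout 2 or heterozygous 1.

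The other membrane gene, Epb42, was not detected in either genotype. Its probe set 1417337_at read 5.66, 7.88 and 14.9 in knockouts, against 6.82, 0.722 and 7.15 in heterozygotes. The second, 1417338_at, read 8.49, 13.7 and 13.4 in knockouts, against 1.54, 13.4 and 2.93 in heterozygotes. All 12 values were under the background, so no difference could be read and none was tested.

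Bpgm was bright, and knockout 4 was its highest array by every probe set. The brightest, 1415865_s_at, read 1239, 1568 and 1317 in knockouts, against 1180.1, 1318 and 1352 in heterozygotes. Apart from knockout 4 the knockouts lay within the range of the heterozygotes. The log2 difference was 0.09 ± 0.12 (SE, 95% interval -0.19 to 0.38). It was 0.15 (-0.35 to 0.65) by 1415864_at and 0.01 (-0.45 to 0.47) by 1448119_at. Without knockout 4 the 3 differences were -0.004, -0.07 and -0.17.

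Of the 21 member probe sets, 13 were bright enough to test, which covered 6 of the 7 genes. None was past an adjusted p of 0.05 in limma, where 0% of all 27022 probe sets tested were called higher and 0% lower. Before adjustment 1 of the 13, that of Alas2, had a limma p under 0.05, beside 0.511% of all tested. The genotypes were apart for 0 of the 13, beside 3.68% of all tested, of which 1.64% had all knockouts above and 2.04% all knockouts below. By their brightest probe sets 4 of the 6 genes had the higher knockout mean and 2 the lower, beside 49.3% higher over all probe sets tested. Their median log2 difference was 0.09, beside -0.002 over all. The median fell almost to 0 without knockout 4, at 0.003, and was 0.16 without knockout 2. Since the same contrast chose Alas2, nothing is read from these counts.

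**Figure D4:**
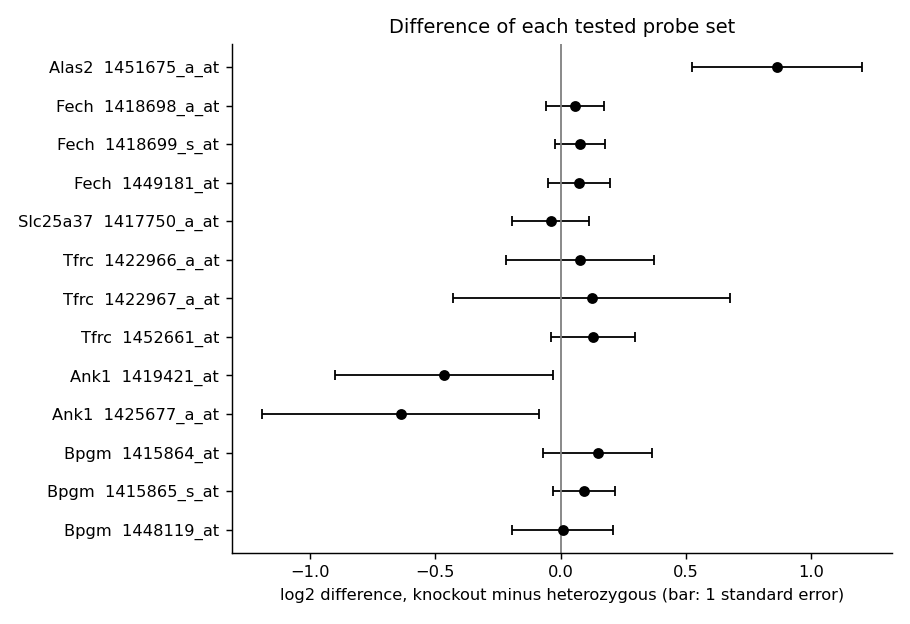
Log2 difference, knockout minus heterozygous, of the 13 tested probe sets (x axis), with 1 standard error as the bar, from the fit of all probe sets tested. Alas2 stands at 0.86, both Ank1 probe sets lie below 0, at -0.46 and -0.64, and the other 10 lie between -0.04 and 0.15.

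Whether the other members followed Alas2 from array to array was compared for 5 genes over 6 arrays. Each gene was taken by its brightest tested probe set. Bpgm gave Pearson r = 0.80 (exact permutation p = 0.053, adjusted over the 5 genes 0.26) and Spearman rho = 0.71 (exact p = 0.14, adjusted 0.22). Fech gave r = 0.62 (exact permutation p = 0.18, adjusted 0.30) and rho = 0.83 (exact p = 0.058, adjusted 0.15). Tfrc gave r = 0.41 (exact permutation p = 0.42, adjusted 0.45) and rho = 0.66 (exact p = 0.17, adjusted 0.22). Slc25a37 gave r = -0.39 (exact permutation p = 0.45, adjusted 0.45) and rho = -0.26 (exact p = 0.66, adjusted 0.66). Ank1 gave r = -0.72 (exact permutation p = 0.11, adjusted 0.27) and rho = -0.89 (exact p = 0.033, adjusted 0.15). These tests were two-sided, and 0 of the 5 genes passed after adjustment. Other probe sets of a gene gave other values. The remaining Bpgm probe sets had r = 0.26 (1415864_at) and 0.31 (1448119_at), below the 0.65 of Fech by 1449181_at and the 0.51 and 0.49 of Tfrc by 1422966_a_at and 1422967_a_at. For Fech by 1418698_a_at r was 0.37, and for Ank1 by 1419421_at it was -0.73. The high value of Bpgm therefore rests on 1 of its 3 probe sets.

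The arrays farthest from the median of Alas2 were heterozygous 1 and 3. Without them r was 0.98 for Bpgm, 0.83 for Tfrc, 0.78 for Fech, 0.54 for Slc25a37 and -0.42 for Ank1, so the sign for Slc25a37 rested on those 2 arrays. With each genotype centred on its own mean, which takes out the contrast that chose Alas2, r was 0.82 for Bpgm, 0.54 for Fech, 0.32 for Tfrc, -0.44 for Slc25a37 and -0.67 for Ank1. For Bpgm much turned on knockout 4 and heterozygous 1, its highest and lowest arrays and those of Alas2, and without both r was -0.02. Of all tested probe sets 1.95% had a higher r with Alas2 than Bpgm by 1415865_s_at did, 8.63% than Fech and 19.7% than Tfrc by their brightest.

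**Figure D5:**
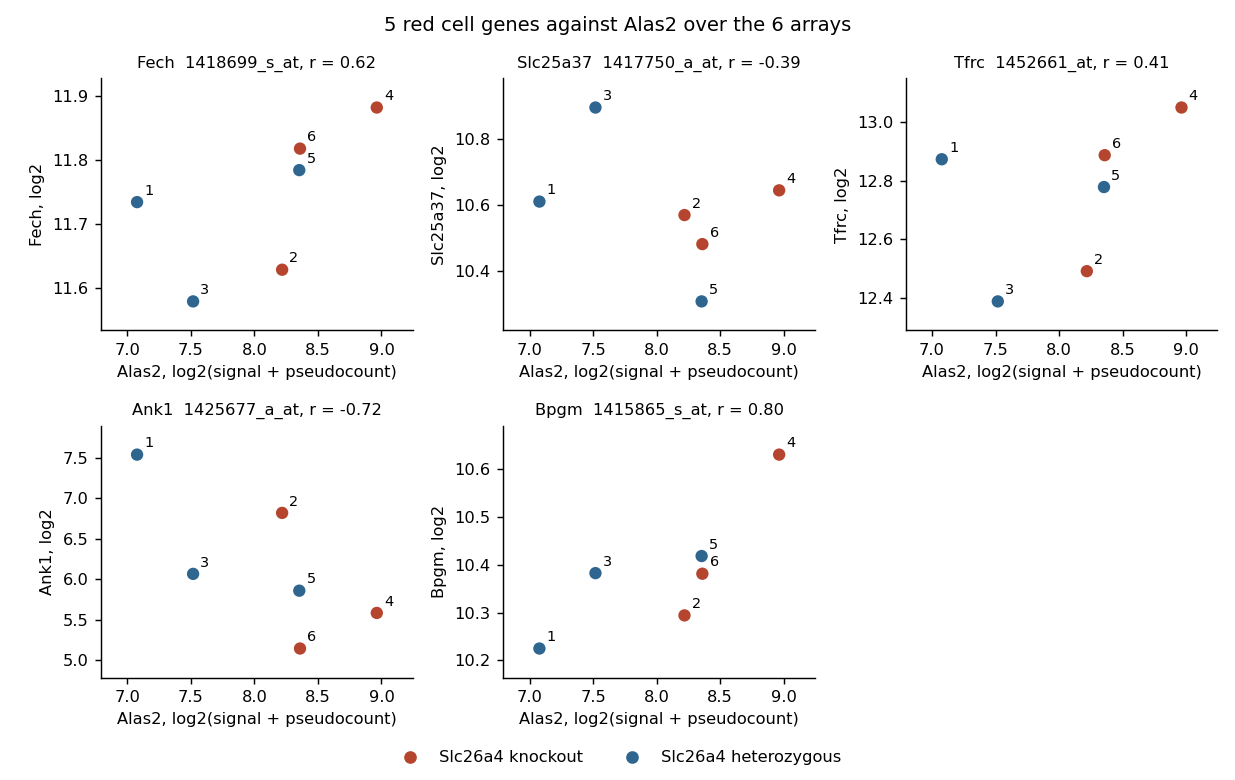
Log2(signal + 16.7) of 5 member genes (y axes) against that of Alas2 (x axis), 1 panel a gene and 1 point an array, labelled by sample number, with knockouts in red and heterozygotes in blue. Each gene is shown by its brightest tested probe set. Bpgm has r = 0.80 and Ank1 runs the other way with r = -0.72, while heterozygous 1 stands apart on the left of every panel.

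The array pattern of Alas2 was matched more closely by genes outside the red cell lists. The 8 genes of highest Pearson r with it over the 6 arrays were Luzp1, 4933404O12Rik, Dhx30, Lrfn3, Nlrc5, Gbp6, Cyp2u1 and Siglece, with r between 0.97 and 0.99. Luzp1 read 649, 698 and 655 in knockouts, against 544, 593 and 651 in heterozygotes, in the same order of arrays as Alas2. In all 129 of the tested probe sets, or 0.477%, had an r above 0.9. No member was among them, from which nothing is read at so small a share. With the genotypes centred, the 8 closest were Rhoj, Niban1, P2ry13, Ccdc3, Cdr2l, 1700008J07Rik, Cxcr4 and Ptgfr, at 0.99 or more. With 6 arrays and many probe sets such values describe these arrays alone.

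Beyond the 7 genes, 80 others of red cell biology were looked up, of which 66 had a probe set of their own and 44 were tested. None passed in limma, in either direction, and 0 had a p under 0.05 before adjustment. The knockout mean was higher for 23 and lower for 21, with a median log2 difference of 0.02, and the groups were separate for 0 of the 44. Over all tested probe sets 3.68% were separate and 0.511% had such a p. That share is far under the threshold of 0.05 itself, so few small p values are not read as a lack of change. Of the listed genes too dim to test, Nfe2 and Hemgn alone had groups apart, both with higher knockouts. Nfe2 read 31.5, 21.9 and 40.8 in knockouts, against 17.3, 15.0 and 11.1 in heterozygotes. Hemgn read 21.09, 33.2 and 24.7, against 12.1, 20.9 and 21.07. Each was above the background on 2 arrays, so nothing is read from them.

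Among the listed genes of heme synthesis, not all of them enzymes, 6 of 12 tested had the higher knockout mean and 0 passed. Alas1, which makes the same step as Alas2 in other tissues, read 2634, 3275 and 2974 in knockouts, against 2341, 2712 and 4144 in heterozygotes. Heterozygous 5 was its highest array and heterozygous 1 its lowest. Alad, the next enzyme, read 1846 ± 228 in knockouts and 1984 ± 49.8 in heterozygotes, Uros 882 ± 145 in knockouts and 849 ± 167 in heterozygotes, and Urod 3873 ± 163 in knockouts and 3764 ± 548 in heterozygotes (SD, n = 3 each, as in the lists below). The highest difference of the list was that of Ppox, at 0.17 ± 0.15 (SE), and the lowest that of Fam210b, at -0.12 ± 0.13.

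Among iron genes 4 of 10 had the higher knockout mean and 0 passed. The iron transporter Slc11a2 read 175 ± 37.5 in knockouts and 174 ± 7.91 in heterozygotes, and the ferrireductase Steap3 read 218 ± 43.3 in knockouts and 232 ± 22.7 in heterozygotes. Slc25a28, the mitoferrin of other tissues, had the lowest difference, -0.10 ± 0.10 (SE). Glrx5, which serves iron-sulfur cluster assembly, had the highest, 0.11 ± 0.09. Aco1, which also acts as an iron regulatory protein on the Tfrc and Alas2 messengers, read 2658 ± 308 in knockouts and 2479 ± 193 in heterozygotes.

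Of the membrane genes 4 of 7 tested had the higher knockout mean, and 0 passed. The anion exchanger Slc4a1, to which ankyrin binds, read 44.1, 122 and 104 in knockouts, against 33.7, 75.5 and 154 in heterozygotes (1434502_x_at). By 1416464_at it read 62.9, 109 and 82.1 in knockouts, against 35.5, 59.4 and 86.1 in heterozygotes. Heterozygous 1 was lowest by both, as for Alas2, and the groups overlapped. Its probe set 1431743_a_at was under the background on every array. The glycophorin Gypc read 887, 1163 and 1126 in knockouts, against 690.5, 886 and 1326 in heterozygotes. The spectrin gene Sptb had the lowest difference, -0.30 ± 0.23 (SE), the skeletal protein Dmtn gave -0.03 ± 0.13 and the water channel Aqp1, also known from endothelium, the highest, 0.22 ± 0.13.

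Over these 44 genes the correlation with Alas2 was highest for Aqp1, with r = 0.89 (exact permutation p = 0.0069, adjusted over the 44 genes 0.31) and rho = 0.94 (exact p = 0.017, adjusted 0.29). Without heterozygous 1 and 3 it was 0.65. Gypc gave r = 0.83 (exact permutation p = 0.040, adjusted 0.44) and rho = 0.83 (exact p = 0.058, adjusted 0.29), and r = 0.34 without those 2 arrays, on which it rested. Slc4a1 gave r = 0.71 (exact permutation p = 0.11, adjusted 0.53) and rho = 0.77 (exact p = 0.10, adjusted 0.30), and r = 0.45 without them. For the adult globins r was -0.11 for Hba-a2 (exact permutation p = 0.83, adjusted 0.87) and 0.16 for Hbb-b2 (exact permutation p = 0.77, adjusted 0.87). Their rho values were 0.09 (exact p = 0.92, adjusted 0.99) and 0.31 (exact p = 0.56, adjusted 0.73). Without heterozygous 1 and 3 the globin r values were 0.60 and 0.90, so their low values rested on those arrays. At the other end E2f4, a cell cycle factor, gave r = -0.86 (exact permutation p = 0.015, adjusted 0.34) and rho = -0.83 (exact p = 0.058, adjusted 0.29), and r = -0.34 without those 2 arrays. Sptb gave r = -0.77 (exact permutation p = 0.082, adjusted 0.53) and rho = -0.83 (exact p = 0.058, adjusted 0.29), and r = -0.70 without them. It read 256, 149 and 155 in knockouts, against 255, 234 and 198 in heterozygotes. Its top pair was knockout 2 and heterozygous 1, as for Ank1, Ckm, Tnnt3 and Acta1. The part of muscle in the Sptb values was not tested. With each genotype centred on its own mean, r was 0.93 for Gypc, 0.91 for Slc4a1 and 0.81 for Aqp1. The centred values were -0.50 for Hba-a2, -0.004 for Hbb-b2, -0.83 for E2f4 and -0.67 for Sptb. Genes of the red cell lists, not all of them particular to red cells, thus lay on both sides of 0. None of the 44 passed after adjustment.

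Hba-a2 read 3015, 3695 and 3315 in knockouts, against 3359, 3542 and 2314 in heterozygotes, with heterozygous 5 lowest. The embryonic globin Hbb-y stayed between 7.85 and 38.0 in knockouts and between 8.48 and 26.3 in heterozygotes by its highest-reading probe set, 1450621_a_at. Probe sets shared by several globin genes were left out. Of the regulators 4 of 5 tested had the higher knockout mean and 0 passed. The erythropoietin receptor Epor read 50.7 ± 4.94 in knockouts and 45.8 ± 14.2 in heterozygotes, and Tal1, shared with endothelium, 248 ± 17.4 in knockouts and 234 ± 70.8 in heterozygotes. Zfpm1 gave 0.09 ± 0.23 (SE), Lmo2 0.12 ± 0.15 and E2f4 -0.10 ± 0.17, and the Epor difference of 0.13 ± 0.25 was the highest of the list.

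Of the genes of late red cells 3 of 8 tested had the higher knockout mean and 0 passed. The carbonic anhydrase Car2 read 2432 ± 509 in knockouts and 2651 ± 528 in heterozygotes, and the peroxiredoxin Prdx2 6942 ± 255 in knockouts and 7064 ± 584 in heterozygotes. The ubiquitin ligase gene Mkrn1 gave the lowest difference, -0.28 ± 0.18 (SE), and the survival gene Bcl2l1 gave -0.28 ± 0.21. Isg20, an interferon-induced nuclease, gave the highest, 0.65 ± 0.42. It read 160.0, 550 and 185 in knockouts, against 137, 137 and 207 in heterozygotes, so its gap lay on knockout 4, the array with thymus and T cell transcripts.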

How the data were processed

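Thyroid RNA of 6 samples was measured on Affymetrix mouse expression arrays after Ovation amplification, per the labels' protocols. The authors deposited linear intensities for each probe set, made with GCOS, per the submitters' processing notes. On every array the mean after trimming 2% at each end was 500.002, so the arrays had been scaled to 1 level, which removes any shift common to most transcripts. Their number limits the precision.

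Gene names came from the platform annotation (34958 with 1 symbol, 932 with several, 9211 with none). The background of 22.9 is the highest value of 27 Bacillus control probe sets. Signals were taken as log2(signal + 16.7), the 25th percentile of all values. The 64 control probe sets were left out, and the 27022 of 45037 others above the 40th percentile of mean log2 value, about a signal of 43.5, were tested with limma 3.58.1 in R 4.3.3 (lmFit, eBayes with a trend) and Benjamini-Hochberg adjustment at 0.05. A gene was represented by its brightest tested probe set. The script was tested on simulated data. Correlations used exact permutations in Python 3.11.15.

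The 7 genes, the lists and the tests were chosen with earlier results of these data known. Named genes were the members, the first 4 tested genes and both extremes of each red cell list, leading genes of the marker lists and the 8 closest to Alas2. Cell type lists were for neutrophils, platelets, T cells, B cells, macrophages, endothelium, proliferation, thyrocytes, brown fat and muscle, and sex. The alternatives were other scalings, pseudocounts, filters, eBayes settings, array weights, the mean over the probe sets of a gene, and arrays left out.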

Additional observations from a re-analysis of the deposited data

How the results depend on the processing

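The count of 0 probe sets called by limma stayed 0 under all 17 alternatives, with 95 to 966 at an unadjusted p under 0.05. Leaving out 1 array at a time, the count of members with a higher knockout mean was 3 to 5, their median log2 difference 0.003 to 0.16, and the count of other red cell genes with a higher knockout mean 18 to 29. Over the same 6 runs the Alas2 difference was 0.58 to 1.22. With the other scalings, pseudocounts and array weights it was 0.72 to 1.26. Array weights raised the member median to 0.18. With heterozygous 1 and knockout 6 left out all 6 tested members had the higher knockout mean, the Alas2 difference was 0.66, and Ank1 by 1419421_at moved to 0.22. With heterozygous 1 and knockout 4 left out, Bpgm by 1415865_s_at moved to -0.06, and its correlation with Alas2 reversed, to -0.017. The cause was not tested, beyond those arrays being the extremes of both genes. Of the 13 tested member probe sets, Alas2 and Fech by 1418699_s_at kept their sign under every alternative, and each of the others changed sign under 1 to 5 of them, mostly with arrays left out. No paired analysis was possible because the groups share no sample number. With 3 arrays a group the intervals of Tfrc and Ank1 leave room for sizeable differences of either sign, and signals under the background carry no order.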

Other observations

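In the marker lists of other cells 0 genes were called by limma, as over all probe sets, of which 138 had a p under 0.05 before adjustment. Macrophage genes had the higher knockout mean in 6 of 9 tested, and their signals summed to 19799, 22444 and 22456 in knockouts, against 19483, 20748 and 23070 in heterozygotes. Platelet genes, led by Pf4 at 2836, 3865 and 3897 in knockouts and 2537, 3537 and 4035 in heterozygotes, had the higher knockout mean in 1 of 4. Pf4 is also made by macrophages. Endothelial genes were higher in 3 of 7, thyrocyte genes in 2 of 8, B cell genes in 2 of 3, neutrophil genes in 4 of 5, thymus and T cell genes in 4 of 4 and proliferation genes in 13 of 15. Of the sex genes 1 of 4 was higher, a count set by knockout 6 alone. There the Y-linked gene Eif2s3y read 9.12, against 3288 and 3725 in the other knockouts and 3564 to 3710 in heterozygotes, and Xist read 5442.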
